A study of Mus musculus with 16 samples.

Results

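Lhx1, its divergent long noncoding RNA Lhx1os, and the paired forkhead genes Foxf1 and Foxf2 were followed across thyroid RNA of mice that ate a high-fat diet with sucrose water or chow. These 4 genes, of 21640 in the count table, were matched by their Ensembl gene identifiers. They were chosen by their measured rise in counts on the high-fat diet at both time points, so their own diet differences are given as description without a test. All the mice were male C57Bl/6J wild types, aged 8 weeks when the diets began. Groups of 4 received either chow (CD) or the high-fat diet plus sucrose in the drinking water (HF+SD), for 3 weeks or for 6 weeks, and each of the 16 libraries was made from the thyroid of a separate mouse. The study's own 6-week comparison states fewer CD mice than the labels list, and every library with a label was used here. Poly(A) RNA was sequenced, and library totals ranged from 30025256 to 42896792 counts in the 6-week CD group, 30838479 to 36262830 in the 6-week HF+SD group, 34031421 to 42491155 in the 3-week CD group and 37283298 to 48508653 in the 3-week HF+SD group. The prefix of the library names changed with the time point, so a difference between the 2 sets of libraries and one between weeks on diet cannot be told apart and levels were compared within a time point. In whole tissue, more cells of a type and more RNA per cell cannot be told apart either.

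LHX1 is a LIM-homeodomain transcription factor that works with the LDB adaptor proteins and is best known from the head organizer of the embryo and from the nephric duct and developing kidney. FOXF1 and FOXF2 are forkhead transcription factors of the splanchnic mesenchyme, the mesoderm that surrounds the gut and its outgrowths, where they respond to Hedgehog signals sent by the epithelium. FOXF1 is also needed in developing endothelium, and FOXF2 in brain pericytes. Lhx1 and both Foxf genes have a noncoding gene close by on the opposite strand: Lhx1os beside Lhx1, Fendrr beside Foxf1 and 1700018A04Rik beside Foxf2.

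The start regions show how these genes are arranged. In the GENCODE M21 annotation of GRCm38, Lhx1 (ENSMUSG00000018698.16, chromosome 11, minus strand) and Lhx1os (ENSMUSG00000087211.9, plus strand) lie head to head with 124 bases between them and 0 shared exon bases. Foxf1 (ENSMUSG00000042812.6, chromosome 8, plus strand) and Fendrr (minus strand) lie head to head with 1275 bases between them, and Foxf2 (ENSMUSG00000038402.3, chromosome 13, plus strand) and 1700018A04Rik (minus strand) with 23 bases between them, also with 0 shared exon bases. The submitters aligned to another build, mm39, so these distances describe GRCm38 only, and RefSeq places the start of 1700018A04Rik farther from Foxf2 than GENCODE does. The RefSeq windows of Lhx1, Foxf2 and Fendrr from GRCm38.p6, each reaching from 250 bases before the start to 50 after it, are printed 5′ to 3′ since they hold the shared Lhx1 start region, the start of Foxf2, and the Fendrr start beside Foxf1. The windows are chr11:84525485-84525784 on the minus strand for Lhx1, chr13:31625566-31625865 on the plus strand for Foxf2 and chr8:121083061-121083360 on the minus strand for Fendrr. Capitals mark matches, on either strand, to the 5 motifs searched:
Lhx1: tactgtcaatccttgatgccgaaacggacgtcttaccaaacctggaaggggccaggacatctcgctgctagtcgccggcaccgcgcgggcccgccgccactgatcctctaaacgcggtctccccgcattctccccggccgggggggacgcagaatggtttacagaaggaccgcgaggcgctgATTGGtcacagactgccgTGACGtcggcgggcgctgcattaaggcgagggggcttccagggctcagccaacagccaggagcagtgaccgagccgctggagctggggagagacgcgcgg
Foxf2: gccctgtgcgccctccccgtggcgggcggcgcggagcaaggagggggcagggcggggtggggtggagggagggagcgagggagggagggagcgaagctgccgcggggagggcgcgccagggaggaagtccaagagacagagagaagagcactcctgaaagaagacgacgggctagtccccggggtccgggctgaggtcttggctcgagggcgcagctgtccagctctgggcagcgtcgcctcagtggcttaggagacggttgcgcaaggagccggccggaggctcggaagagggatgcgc
Fendrr: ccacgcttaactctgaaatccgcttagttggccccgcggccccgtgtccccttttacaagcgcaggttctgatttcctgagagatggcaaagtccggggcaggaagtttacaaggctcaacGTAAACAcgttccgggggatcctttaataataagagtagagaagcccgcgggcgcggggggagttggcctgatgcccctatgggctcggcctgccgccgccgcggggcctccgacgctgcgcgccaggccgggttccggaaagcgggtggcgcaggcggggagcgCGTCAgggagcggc
The Lhx1os window, chr11:84525410-84525709 on the plus strand, shares 225 bases with the Lhx1 window, read from the other strand. The shared stretch held 1 CCAAT box (CCAAT, found in 37.4% of 32851 promoter windows) and 1 match to the core of the cAMP response element (TGACG, found in 20.8%). In the Fendrr window 1 forkhead motif (GTAAACA, in 3.65% of windows) and 1 TGACG were found. The Foxf2 window held 0 matches to any of them. The full cAMP response element (TGACGTCA, in 1.79% of windows), which contains TGACG on both strands, and the LIM-homeodomain core (TAATTA, in 5.29%) had 0 matches in these 4 windows. A match is only a run of letters in a window and does not show binding.

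Lhx1 was close to absent in chow-fed thyroid and clearly counted in every HF+SD library. At 6 weeks the CD mice had 0, 1, 5 and 9 Lhx1 counts and the HF+SD mice 78, 163, 357 and 417. At 3 weeks the CD mice had 0, 0, 0 and 1 counts and the HF+SD mice 43, 56, 71 and 108. The diets did not overlap at either time point, and the HF+SD mice at 6 weeks varied widely among themselves. Mean Lhx1 level went from 0.110 ± 0.121 CPM (counts per 1000000 counts of the TMM-scaled library; SD, n = 4) on CD to 7.22 ± 4.5 on HF+SD at 6 weeks, a log2 fold change of 6.05 ± 0.85 (SE). It was 0.00643 ± 0.0129 CPM against 1.68 ± 0.487 CPM at 3 weeks, with a fitted log2 fold change of 7.47 ± 0.57.

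With so few CD counts, the ratio of summed counts is given for Lhx1 as well, though it leaves out the spread between mice. It was 69.2 at 6 weeks, from 15 counts in the CD mice and 1015 in the HF+SD mice, and the exact 95% interval, which reflects counting error alone, ran from 41.7 to 124. At 3 weeks, with 1 CD count against 278, it was 269 with an interval of 47.9 to 10663. The 3-week value therefore has almost no upper limit, and the larger fitted fold change at 3 weeks than at 6 weeks cannot be read as an order. The 5 and 9 counts of the 6-week CD group came from the mice M45 and M48, whose libraries also had the highest summed level of skeletal muscle markers, 194156 and 113458 CPM. Without them the 6-week log2 fold change of Lhx1 was 8.82. The CD mice left in that fit, M22 and M43, had 0 and 1 Lhx1 counts, so this value also has almost no upper limit. Whether muscle in the sample contributed to those counts was not tested.

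Lhx1os, the noncoding gene that starts beside Lhx1, showed the same split between diets. Its counts were 0, 1, 3 and 4 in the 6-week CD mice and 135, 228, 298 and 388 in the HF+SD mice. At 3 weeks they were 0, 1, 1 and 3 on CD and 28, 31, 42 and 86 on HF+SD. The lowest HF+SD mouse was well above the highest CD mouse at both time points. Mean level was 0.0581 ± 0.0513 CPM on CD and 7.50 ± 3.17 CPM on HF+SD at 6 weeks (log2 fold change 6.98 ± 0.62), and 0.0338 ± 0.0359 against 1.11 ± 0.493 CPM at 3 weeks (5.00 ± 0.59). The ratio of summed counts was 134 at 6 weeks, with an interval of 67.8 to 311, and 36.2 at 3 weeks, with an interval of 15.2 to 113. These intervals also reflect counting error alone and leave out the spread between mice.

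Counts of both genes were of like size in the HF+SD mice. The number of Lhx1 counts per Lhx1os count ran from 0.578 to 1.20 over the HF+SD mice at 6 weeks and from 1.26 to 2.29 at 3 weeks. Lhx1 had more counts than Lhx1os in every 3-week HF+SD mouse and in M34 and M35 at 6 weeks, and fewer in M5 and M18. Per kilobase of annotated exon, Lhx1os had the higher mean level in the 6-week HF+SD group, 10.7 CPM per kb against 1.77 for Lhx1. Nothing in the sources used here says whether strand was used in counting, and reads from unannotated ends of one gene could have been counted for the other, and the 2 values are not independent measurements.

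**Figure D1:**
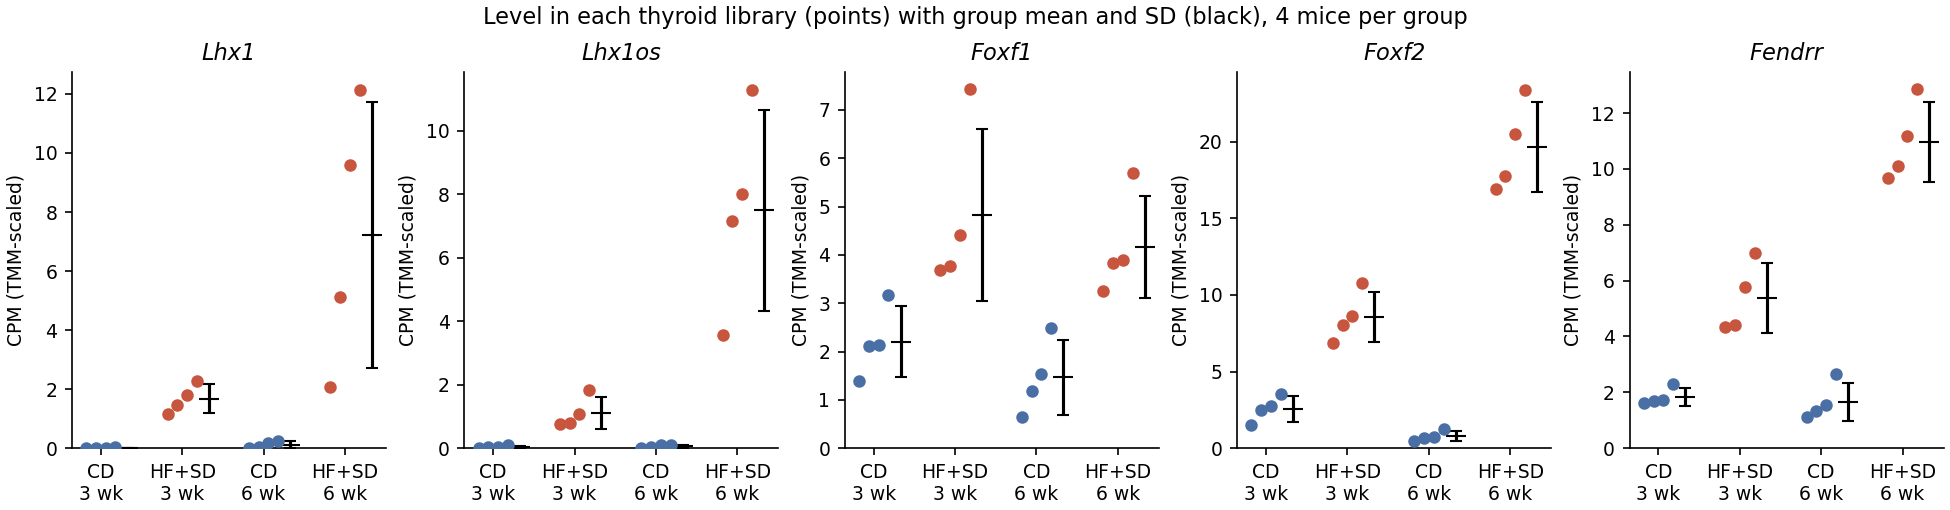
Level of Lhx1, Lhx1os, Foxf1, Foxf2 and Fendrr in CPM (vertical axes, linear from 0) in each thyroid library, with blue points for CD, red points for HF+SD, and the mean and SD of the 4 mice in black. Red points lie above blue ones at both time points in each panel, and the highest red group of Foxf2, at 6 weeks, averaged 19.6 CPM.

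Foxf2 was expressed at a low level in chow-fed thyroid and had the higher forkhead counts of the pair on HF+SD. At 6 weeks its counts were 16, 22, 29 and 43 on CD and 539, 672, 705 and 870 on HF+SD. At 3 weeks they were 63, 97, 97 and 142 on CD and 254, 311, 409 and 420 on HF+SD. The diets did not overlap, and the gap was wider at 6 weeks. Mean level was 0.766 ± 0.331 CPM on CD and 19.6 ± 2.94 CPM on HF+SD at 6 weeks, 25.6-fold apart (log2 fold change 4.67 ± 0.31). At 3 weeks it was 2.56 ± 0.835 against 8.57 ± 1.64 CPM, 3.35-fold apart (1.74 ± 0.25).

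Foxf1 differed between the diets by less. Its counts at 6 weeks were 20, 52, 54 and 87 on CD and 123, 124, 132 and 212 on HF+SD. At 3 weeks they were 59, 75, 83 and 128 on CD and 137, 147, 171 and 352 on HF+SD, where the highest CD mouse came close to the lowest HF+SD mouse. Mean level was 1.47 ± 0.777 CPM on CD against 4.17 ± 1.06 on HF+SD at 6 weeks (log2 fold change 1.50 ± 0.37) and 2.20 ± 0.729 against 4.83 ± 1.77 CPM at 3 weeks (1.13 ± 0.30). The 3-week log2 fold change was 0.84 without the HF+SD mouse M31 and 0.97 without the CD mouse M96, both below the minimum of 1 used for calls. At 6 weeks it was 1.03 with libraries scaled to thyrocyte markers and 1.01 with a muscle score as covariate.

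The balance of the pair within a library differed most at 6 weeks. Foxf2 counts per Foxf1 count ran from 0.296 to 1.10 in the 6-week CD mice and from 4.1 to 5.46 in the 6-week HF+SD mice. At 3 weeks the ratio ran from 1.07 to 1.29 on CD and from 1.16 to 2.86 on HF+SD, with overlap between the diets. Per kilobase of exon, the mean levels in the 6-week CD group were 0.324 CPM per kb for Foxf2 and 0.608 for Foxf1, and in the 6-week HF+SD group 8.30 and 1.73.

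**Figure D2:**
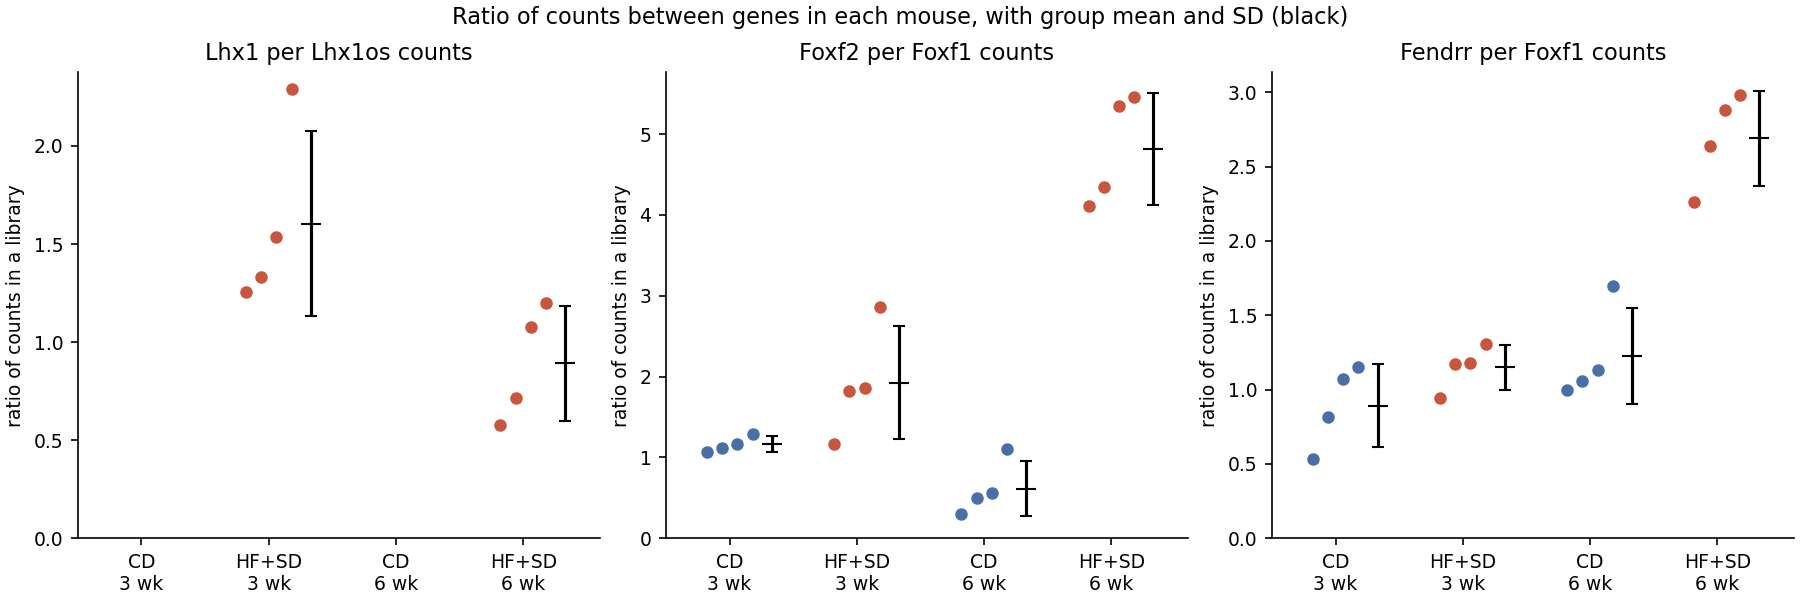
Ratio of counts between genes (vertical axes, linear from 0) in each mouse, for Lhx1 per Lhx1os, Foxf2 per Foxf1 and Fendrr per Foxf1, with blue points for CD, red points for HF+SD, and group mean and SD in black. The Lhx1 per Lhx1os ratio is drawn only for HF+SD because CD counts were near 0, and the 6-week HF+SD mice have the highest ratios, 4.1 to 5.46, for Foxf2 per Foxf1.

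By the size of the fitted log2 fold change, Lhx1 ranked 6, Lhx1os 3, Foxf2 23 and Foxf1 675 of 18249 genes tested at 6 weeks. At 3 weeks the ranks were 1, 6, 231 and 564 of 17238. All 4 had enough counts to enter both fits, were past the thresholds used for calls (an adjusted p below 0.05 together with a log2 fold change above 1 in either direction), and had every HF+SD mouse above every CD mouse. Of all genes, 6.64% were called higher and 13.8% had every HF+SD mouse above every CD mouse at 6 weeks, and 3.25% and 13.1% at 3 weeks. The 4 genes were picked for these values, so nothing is read from their passing the thresholds. The 6-week minus the 3-week log2 fold change was -1.50 ± 1.49 for Lhx1, 1.92 ± 1.23 for Lhx1os, 0.32 ± 0.50 for Foxf1 and 2.88 ± 0.39 for Foxf2. Over all genes, 0.0792% of 18929 differed between the time points at an adjusted p under 0.05 in the joint fit.

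The noncoding neighbours of both Foxf genes were not part of the choice, and their counts were tested. As with Lhx1 and Lhx1os, reads near the facing starts could have been counted for either gene of a pair, so these values may not be independent of Foxf1 and Foxf2. Fendrr, the noncoding gene beside Foxf1 with known roles in heart and body wall development, had 34, 54, 59 and 92 counts in the 6-week CD mice and 348, 357, 367 and 479 in the HF+SD mice. At 3 weeks it had 61, 68, 68 and 89 counts on CD and 161, 173, 223 and 331 on HF+SD. It rose at 6 weeks from 1.66 ± 0.679 to 11.0 ± 1.42 CPM (log2 fold change 2.72 ± 0.28, edgeR adjusted p = 0.000398) and at 3 weeks from 1.83 ± 0.312 to 5.38 ± 1.26 CPM (1.56 ± 0.20, edgeR adjusted p = 0.00133). Fendrr counts per Foxf1 count ran from 1.00 to 1.70 on CD and from 2.26 to 2.98 on HF+SD at 6 weeks, and overlapped at 3 weeks, from 0.531 to 1.15 on CD and from 0.940 to 1.30 on HF+SD.

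1700018A04Rik, annotated as a long noncoding gene head to head with Foxf2, had 51, 71, 76 and 117 counts in the 6-week CD mice and 990, 1010, 1017 and 1075 in the HF+SD mice. At 3 weeks it had 38, 44, 94 and 112 counts on CD and 480, 645, 659 and 768 on HF+SD. The HF+SD mice agreed closely with each other at 6 weeks and stood far from the CD mice at both times. It rose from 2.21 ± 0.842 to 29.1 ± 2.88 CPM at 6 weeks (log2 fold change 3.72 ± 0.27, edgeR adjusted p = 0.000115) and from 1.88 ± 1.06 to 15.7 ± 1.87 CPM at 3 weeks (3.07 ± 0.34, edgeR adjusted p = 0.000662). At 3 weeks its log2 fold change was larger than the 1.74 of Foxf2 itself. A530084C06Rik, 66482 bases from Foxf2 in GRCm38 and annotated as protein coding, rose from 0.666 ± 0.0949 to 5.01 ± 0.321 CPM at 6 weeks (2.91 ± 0.19, edgeR adjusted p = 0.000103) and from 0.882 ± 0.0850 to 3.37 ± 0.278 CPM at 3 weeks (1.93 ± 0.16, edgeR adjusted p = 0.000222). The calls of Fendrr, 1700018A04Rik and A530084C06Rik stood at both time points in each alternative fit and without any single mouse.

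Other tested genes around the loci mostly did not follow. Of the 5 genes on each side of Lhx1, 10 were tested at each time point, 0 were called higher and 1, Acaca, was called lower at both. Acaca, which encodes the acetyl-CoA carboxylase of fatty acid synthesis, fell from 149 ± 66.9 to 73.0 ± 6.10 CPM at 6 weeks (log2 fold change -1.03, edgeR adjusted p = 0.0239) and from 246 ± 46.8 to 114 ± 9.96 CPM at 3 weeks (-1.11, edgeR adjusted p = 0.000856). Its 6-week call was lost without any one of the mice M43, M5, M18, M34 and M35, and its 3-week call without M96. Aatf, the next gene on the other side of Lhx1 from Lhx1os, had log2 fold changes of -0.28 at 6 weeks and 0.05 at 3 weeks, and neither was called.

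Around Foxf1, 9 of 10 neighbours were tested at 6 weeks and 10 at 3 weeks, and Fendrr was the one called higher at each. Fbxo31, which encodes an F-box protein, fell at 6 weeks by a log2 fold change of -1.53 (edgeR adjusted p = 0.0225), a call lost without any one of M48, M5, M18, M34 and M35. It was also lost without M45 and M48 together, the CD libraries with the highest muscle sums. M43, with a muscle sum of 31944 CPM, stayed in that fit. Foxc2, the forkhead gene on the far side of Foxf1, had log2 fold changes of 1.09 ± 0.50 at 6 weeks and -0.12 ± 0.35 at 3 weeks and was not called.

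Around Foxf2, 8 of 10 neighbours were tested at 6 weeks and 7 at 3 weeks, with 2 called higher, 1700018A04Rik and A530084C06Rik, and 1 lower at each. G630018N14Rik, 216893 bases from Foxf2 in GRCm38, had too few counts for a test. It had 0 to 4 counts on CD and 9 to 26 on HF+SD at 6 weeks. At 3 weeks it had 0 to 1 counts on CD and 2 to 13 on HF+SD. Foxq1, a forkhead gene that lies 64839 bases from Foxf2 in GRCm38, between A530084C06Rik and 1700018A04Rik, went the other way at 3 weeks. Its 3-week counts were 159, 260, 282 and 406 on CD and 99, 102, 135 and 147 on HF+SD, a fall from 7.01 ± 2.51 to 2.97 ± 0.391 CPM (log2 fold change -1.24 ± 0.24, edgeR adjusted p = 0.00891). Without M55, which had the highest count, the log2 fold change was -0.99 and the call was lost. At 6 weeks Foxq1 counts were 30, 33, 46 and 61 on CD and 50, 58, 102 and 103 on HF+SD (0.86 ± 0.33, edgeR adjusted p = 0.0891), which was not a call. The difference between the time points was 2.05 ± 0.43 and missed the threshold in the joint fit (edgeR adjusted p = 0.0524). Foxc1, on the other side of Foxf2, was not called, with log2 fold changes of -0.14 ± 0.38 and 0.15 ± 0.19. Mylk4, a muscle kinase gene, fell at 6 weeks by -5.10 ± 1.24 (edgeR adjusted p = 0.0201), from a CD group whose SD of 428 CPM exceeded its mean of 408, and the call was lost without any one of M18, M34 and M35.

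**Figure D3:**
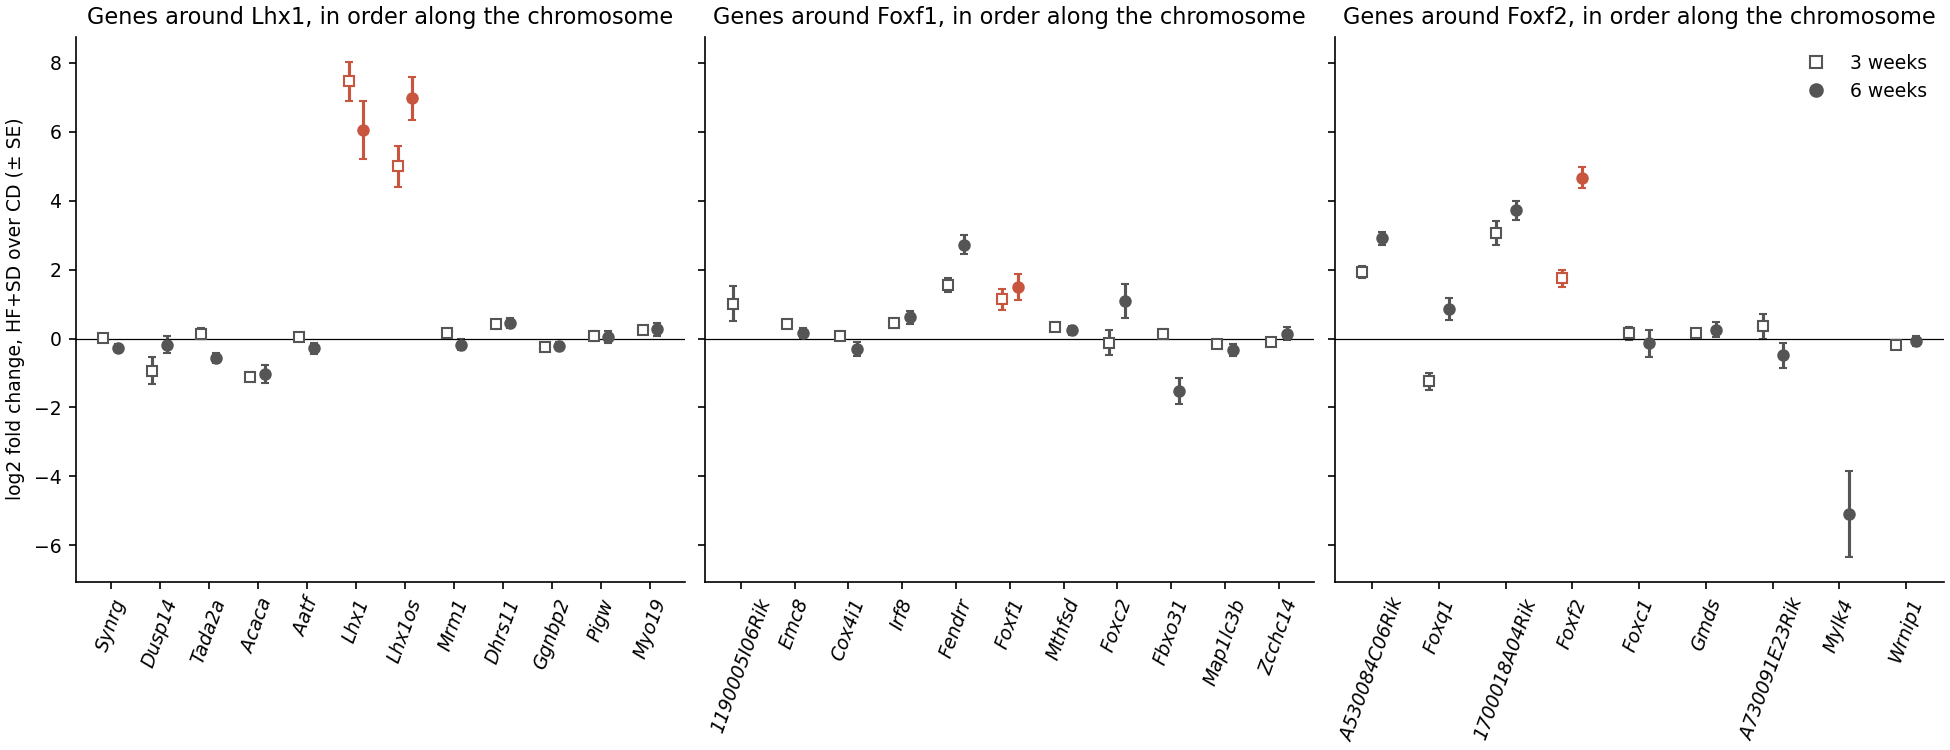
Log2 fold change of HF+SD over CD with its SE (vertical axis) for the genes around Lhx1, Foxf1 and Foxf2 in their order along the chromosome (horizontal axis), with squares for 3 weeks, circles for 6 weeks, and Lhx1, Lhx1os, Foxf1 and Foxf2 in red. Genes with too few counts for a fit are not drawn. Fendrr at 2.72 and 1700018A04Rik at 3.72 rise beside Foxf1 and Foxf2, while the genes around Lhx1 and Lhx1os stay between -2 and 2.

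Of the other LIM-homeobox genes listed, 4 had enough counts at 6 weeks, with 1 called higher and 1 lower, and 5 at 3 weeks, with 0 called in either direction. At 6 weeks, 6.01% of all genes were called lower, and at 3 weeks 1.40%. Lhx6, a regulator of forebrain interneurons and tooth development, rose at 6 weeks from 0.974 ± 0.578 to 2.83 ± 0.756 CPM (log2 fold change 1.54 ± 0.42, edgeR adjusted p = 0.0310), but the call was lost without any one of M45, M48, M18, M34 and M35. Lmx1a, a regulator of dopaminergic neurons, fell from 0.566 ± 0.106 to 0.184 ± 0.0346 CPM (-1.61 ± 0.29, edgeR adjusted p = 0.00564). The median log2 fold change of the list was -0.11 at 6 weeks and -0.02 at 3 weeks, against -0.01 over all genes tested at each time point.

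Among the cofactors of LIM-domain proteins, 2 of 9 were called higher at 6 weeks and 1 of 9 at 3 weeks, with 0 lower. Ldb2, an adaptor that bridges LIM-homeodomain factors to other proteins, rose from 7.75 ± 0.785 to 32.9 ± 3.00 CPM at 6 weeks (log2 fold change 2.08 ± 0.13, edgeR adjusted p = 0.000103). At 3 weeks it rose from 9.96 ± 2.09 to 20.3 ± 4.41 CPM (1.03 ± 0.19, edgeR adjusted p = 0.00639), a change that fell below the fold threshold without M96 or without M31. Ssbp4, which encodes a DNA-binding partner of the LDB proteins, rose at 6 weeks from 15.7 ± 1.06 to 32.8 ± 4.36 CPM (1.06 ± 0.13, edgeR adjusted p = 0.00102). Its log2 fold change was 0.99 without M35 and 0.52 when the libraries were scaled to thyrocyte markers, and neither was a call. The list medians were 0.16 and -0.07.

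Of the genes that act with Lhx1 in head and kidney development, 11 were tested at 6 weeks, with 1 called higher and 3 lower, and 13 at 3 weeks, with 2 called higher and 0 lower. Among the genes that fell at 6 weeks were Eya1 (log2 fold change -2.90 ± 0.45, edgeR adjusted p = 0.0028) and Gata3 (-1.89 ± 0.42, edgeR adjusted p = 0.0145). Eya1 encodes a transcriptional coactivator that also acts in muscle and in the pharyngeal glands, and Gata3 is a regulator of kidney, T cell and parathyroid development. The 6-week CD libraries M43, M45 and M48 had higher summed muscle markers than any HF+SD library of that week. M22 had the lowest muscle sum of that week but the highest sum of parathyroid markers, 16928 CPM. The parathyroid sums of the 6-week HF+SD libraries ran from 585 to 2689 CPM. Without M22 the 6-week log2 fold change of Gata3 was -1.40. The part of muscle or of parathyroid tissue in these falls was not tested. The Gata3 call was lost without M18 or without M34. Bmp7, a growth factor of kidney development, was called higher at 6 weeks (1.13 ± 0.34, edgeR adjusted p = 0.0438) with overlap between the diets, and at 3 weeks (1.20 ± 0.29, edgeR adjusted p = 0.0244). The 6-week call was lost without any one of 7 of the 8 mice, M22 being the exception, and the 3-week call without M96, M19y or M31. Wnt9b, which signals from the nephric duct, was called higher at 3 weeks (1.16 ± 0.32, edgeR adjusted p = 0.0391), and that call was lost whichever of the 8 mice was left out. At 6 weeks Wnt9b had too few counts for a test, 9 in all on CD and 55 on HF+SD, without overlap between the diets. The list medians were -0.38 at 6 weeks and 0.18 at 3 weeks.

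Of the other forkhead genes, 26 were tested at 6 weeks, with 3 called higher and 2 lower, and 28 at 3 weeks, with 1 higher and 1 lower. The list medians were 0.01 and -0.13, near the median of all genes. Foxs1, a forkhead gene of pericytes and neural crest derivatives, rose at 6 weeks from 0.906 ± 0.197 to 2.53 ± 0.646 CPM (log2 fold change 1.48 ± 0.26, edgeR adjusted p = 0.00471). Its log2 fold change was 0.94, below the fold threshold, when libraries were scaled to thyrocyte markers. Foxm1, which drives genes of mitosis, rose at 6 weeks (1.59 ± 0.27, edgeR adjusted p = 0.00476) and at 3 weeks (1.03 ± 0.26, edgeR adjusted p = 0.0273), the latter call being lost without any one of M53, M96, M19y, M20y and M31. Foxj1, the regulator of motile cilia, rose at 6 weeks (1.85 ± 0.43, edgeR adjusted p = 0.0177), a call lost without M18 or without M34. At 3 weeks the log2 fold change of Foxj1 was 1.82 ± 0.59 without overlap between the diets, and it was not called (edgeR adjusted p = 0.0641). Foxn1, the regulator of thymic epithelium, fell at 6 weeks from 1.72 ± 1.34 to 0.169 ± 0.0537 CPM (-3.31 ± 0.60, edgeR adjusted p = 0.00622). Foxn3 was called lower at 6 weeks (-1.30 ± 0.40, edgeR adjusted p = 0.0477) with overlap between the diets, and without M45, M48, M5, M18, M34 or M35 it was not. Foxe1, the thyroid forkhead factor and the best expressed of the list, with a mean of 297 CPM over the 16 libraries, was not called, with log2 fold changes of 0.10 ± 0.31 and 0.28 ± 0.16.

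**Figure D4:**
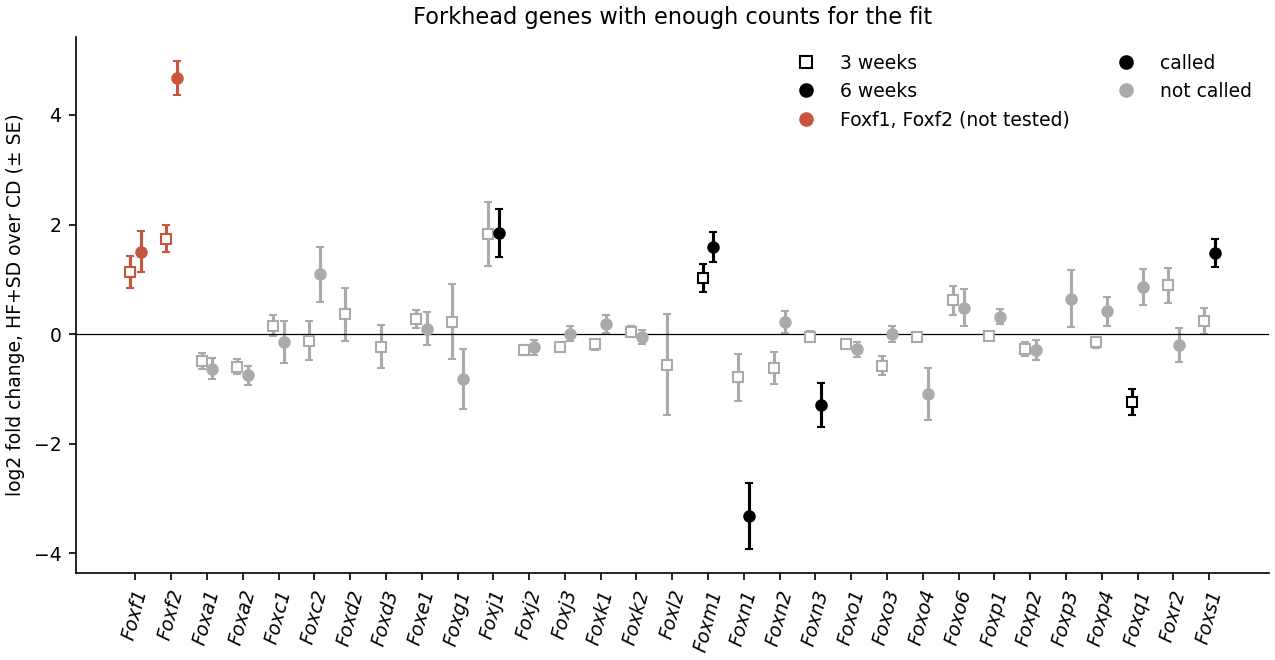
Log2 fold change of HF+SD over CD with its SE (vertical axis) for each forkhead gene with enough counts (horizontal axis), with squares for 3 weeks, circles for 6 weeks, Foxf1 and Foxf2 in red, other called genes in black and those not called in grey. Foxf2 at 6 weeks stands highest at 4.67, and most of the grey points lie between -1 and 1.

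In the Hedgehog pathway, which acts upstream of the Foxf genes in gut and lung mesenchyme, 2 of 18 genes were called higher at each time point and 0 lower. Dhh, a Hedgehog ligand, rose at 6 weeks from 0.218 ± 0.0696 to 1.12 ± 0.391 CPM (log2 fold change 2.36 ± 0.35, edgeR adjusted p = 0.00234). At 3 weeks Dhh was not called (0.98 ± 0.37, edgeR adjusted p = 0.103). Gli2, a transcription factor that carries out the Hedgehog response, rose at 6 weeks from 14.6 ± 5.09 to 41.4 ± 11.0 CPM (1.51 ± 0.28, edgeR adjusted p = 0.00698) and at 3 weeks from 23.6 ± 6.14 to 70.4 ± 27.9 CPM (1.58 ± 0.28, edgeR adjusted p = 0.00606). Its 6-week log2 fold change was 0.99, below the fold threshold, when libraries were scaled to thyrocyte markers. Hhip, a Hedgehog-binding inhibitor that is itself a target of the pathway, rose at 3 weeks from 0.943 ± 0.379 to 2.68 ± 0.927 CPM (1.50 ± 0.34, edgeR adjusted p = 0.0171), a call lost with a muscle score as covariate (edgeR adjusted p = 0.0633). At 6 weeks Hhip was not called (1.11 ± 0.39, edgeR adjusted p = 0.0683). Gli1 and Ptch1, also of this list, were not called at either time point. Gli1 had log2 fold changes of 0.10 ± 0.23 at 6 weeks and 0.29 ± 0.23 at 3 weeks, and Ptch1 0.76 ± 0.19 and 0.28 ± 0.12. The 6-week difference of Ptch1 (edgeR adjusted p = 0.0220) had no overlap between the diets and missed only the fold threshold. Cdon, a Hedgehog coreceptor and the best expressed of the list at 199 CPM over the 16 libraries, had log2 fold changes of 0.94 ± 0.19 at 6 weeks (edgeR adjusted p = 0.0104) and 0.53 ± 0.18 at 3 weeks (edgeR adjusted p = 0.0780), below the fold threshold at both. Without M22 the 6-week count was 7 and without M5 it was 4. The list medians were 0.57 and 0.46, while scaling to thyrocyte markers changed the 6-week all-gene median by -0.53. Of the other factors of the splanchnic mesenchyme, 11 were tested at 6 weeks and 8 at 3 weeks, and Fendrr was the 1 called at each, with 2 called at 6 weeks without M45 and 2 at 3 weeks without M54. The medians of that list were 0.52 and 0.53.

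Other alternative settings also ended calls of these lists and neighbours. With the muscle score as covariate the calls of Lhx6, Bmp7, Foxj1, Foxn3, Acaca, Fbxo31 and Mylk4 were lost at 6 weeks and those of Bmp7, Wnt9b and Foxq1 at 3 weeks. Without M45 and M48 together, Lhx6, Bmp7, Foxj1, Foxn3, Fbxo31 and Mylk4 lost their 6-week calls. Thyrocyte scaling ended the calls of Bmp7 at 6 weeks and of Ldb2, Wnt9b and Foxm1 at 3 weeks, and limma those of Foxn3, Acaca and Mylk4 at 6 weeks and of Wnt9b at 3 weeks. Upper-quartile factors ended the 6-week call of Bmp7, and DESeq2, no filter on low counts and a joint fit of the 16 libraries each ended the 3-week call of Wnt9b.

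Most markers of vessels were also higher on HF+SD, with more of them called at 6 weeks than at 3 weeks. Of 12 endothelial markers, 11 were called higher at 6 weeks and 2 at 3 weeks, with 0 lower, and no marker was at 0 in any library. The 3-week count was 1 without M96 or without M31. Their summed level ran from 431 to 578 CPM on CD and from 1540 to 1736 CPM on HF+SD at 6 weeks, and from 707 to 941 against 1250 to 1822 CPM at 3 weeks. Of 12 markers of mural cells, the smooth muscle cells and pericytes around vessels, 6 were called higher at 6 weeks and 0 at 3 weeks, with no marker at 0. Their summed level ran from 552 to 877 on CD and from 1274 to 1403 CPM on HF+SD at 6 weeks, and from 509 to 572 against 602 to 905 CPM at 3 weeks. With libraries scaled to thyrocyte markers, 3 mural markers were called at 6 weeks. The median log2 fold changes were 1.61 and 0.77 for the endothelial and 1.07 and 0.36 for the mural list. The part of vessel cells in the levels of the Foxf genes was not tested.

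The Foxf levels can also be expressed against these sums. Foxf1 per 1000 CPM of endothelial markers was 2.82 ± 1.16 CPM on CD and 2.55 ± 0.507 on HF+SD at 6 weeks, and 2.73 ± 0.859 against 3.21 ± 0.587 at 3 weeks, with overlap between the diets at both. Foxf1 per 1000 CPM of mural markers was 2.22 ± 1.62 on CD and 3.15 ± 0.788 on HF+SD at 6 weeks, and 3.99 ± 1.25 against 6.47 ± 1.23 at 3 weeks, also with overlap at both. Foxf2 per 1000 CPM of endothelial markers was 1.52 ± 0.532 on CD and 12.1 ± 1.46 on HF+SD at 6 weeks, and ran from 0.852 to 2.13 against 10.3 to 13.5. At 3 weeks it ran from 2.11 to 4.36 on CD and from 4.74 to 8.60 on HF+SD. Per 1000 CPM of mural markers, Foxf2 ran from 0.580 to 2.24 on CD and from 12.0 to 17.7 on HF+SD at 6 weeks, and from 2.68 to 6.15 against 9.55 to 17.9 at 3 weeks. Much of the mural sum was Rgs5, which averaged 323 CPM on CD and 774 CPM on HF+SD at 6 weeks. Abcc9, the next largest on CD, averaged 160 ± 109 CPM on CD and 87.1 ± 9.73 CPM on HF+SD at 6 weeks. In the 6-week CD group the mural sum was lowest in M22 (552 CPM), which also had the lowest skeletal muscle sum. It was highest in M45 (877 CPM), which had the highest muscle sum. The part of muscle in the mural sums was not tested.

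The thyrocyte list checked the tissue. Its 14 markers, none at 0 in any library, summed to between 68478 and 102964 CPM on CD and between 102123 and 145952 CPM on HF+SD at 6 weeks, and to between 259917 and 310931 against 284405 to 316747 CPM at 3 weeks. Of them, 8 were called higher at 6 weeks and 5 at 3 weeks, with 0 lower. Most of each sum was Tg, which averaged 77108 CPM on CD and 105180 CPM on HF+SD at 6 weeks. At 3 weeks Tg averaged 278966 CPM on CD and 286063 CPM on HF+SD. Scaling to thyrocyte markers used the summed counts of this list, so it was mostly scaling to Tg. Skeletal muscle markers summed to between 728 and 194156 CPM in the 6-week CD mice and between 1024 and 3669 CPM in the 6-week HF+SD mice, and 15 of 16 were called lower. That count was 0 when any one of the HF+SD mice M18, M34 and M35 was left out. At 3 weeks the muscle sums were at most 60.7 CPM, 5 of the 16 markers (Tnnc2, Ckm, Myh2, Myh7 and Pvalb) were at 0 in at least one library of the study, and 1 of 14 tested was called higher (8 without M96). The part of muscle in the levels of Lhx1, Lhx1os and the Foxf genes was not tested.

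Of 10 fibroblast markers, 0 were called at 6 weeks and 1, Col3a1, was called higher at 3 weeks. Foxf2 per 1000 CPM of fibroblast markers ran from 0.306 to 1.73 on CD and from 13.7 to 20.9 on HF+SD at 6 weeks. Of 4 parathyroid markers, 0 were called at either time point. Their summed level at 6 weeks ran from 2630 to 16928 CPM on CD and from 585 to 2689 CPM on HF+SD. At 3 weeks it ran from 119 to 5146 CPM on CD and from 64.2 to 2030 CPM on HF+SD. The median log2 fold changes of this list were -1.91 and -0.67. Of 6 C cell markers, 1 was called lower at 6 weeks and 0 at 3 weeks. The C cell sums were lower on HF+SD without overlap at both time points. They ran from 5687 to 10312 against 3889 to 4206 CPM at 6 weeks. At 3 weeks they ran from 3266 to 5173 against 2647 to 2956 CPM. The part of these cells in the levels of the 4 genes was not tested. Of the nerve and glia markers 2 of 9 were called lower at 6 weeks and 0 of 10 at 3 weeks.

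**Figure D5:**
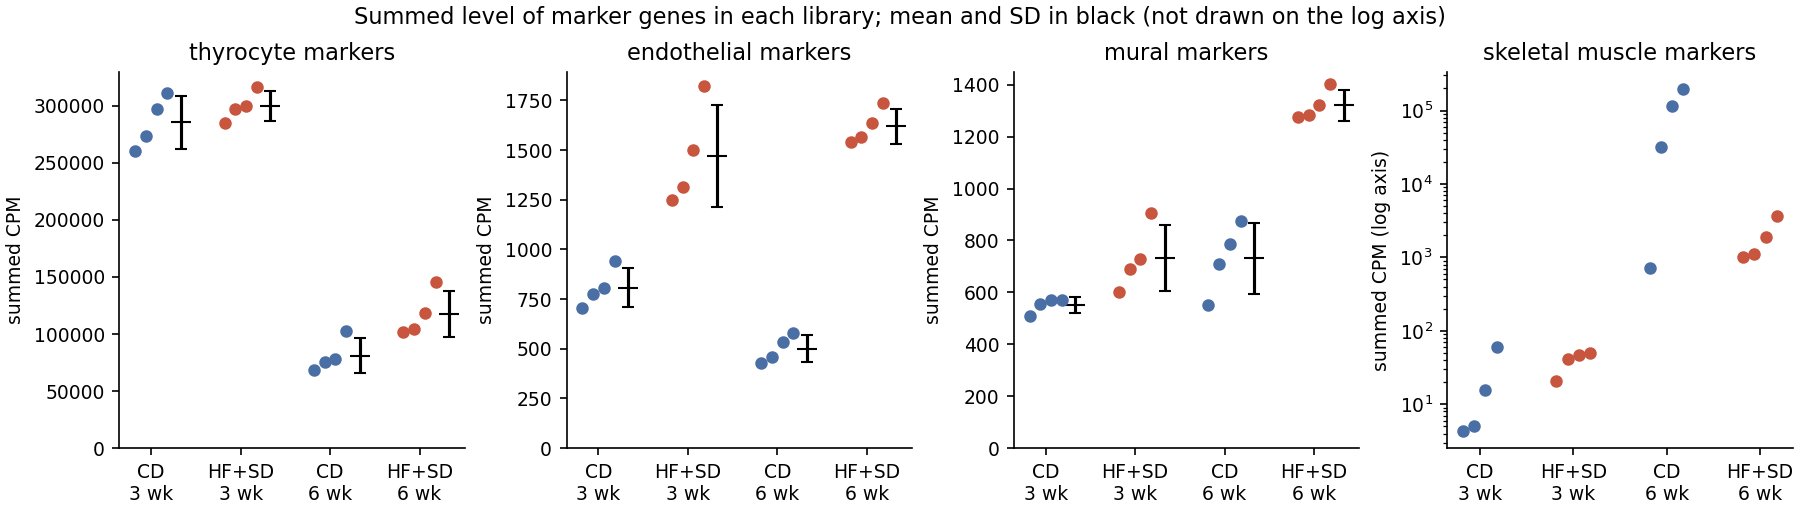
Summed CPM of thyrocyte, endothelial, mural and skeletal muscle markers (vertical axes, linear from 0 except the logarithmic muscle axis) in each library, with blue points for CD, red points for HF+SD, and mean and SD in black on the linear axes. Endothelial sums of 1540 to 1736 on HF+SD at 6 weeks lie above the CD sums, and the muscle sums of the 6-week CD mice spread widely, up to 194156.

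The genes whose level tracked each of the 4 most closely over the 16 libraries were named from Pearson's r of log2 CPM after the mean of each time point was subtracted, among 17023 genes tested at both time points. They were chosen for this likeness, and since the libraries fall into diet groups, r mostly restates that a gene differs between the diets. For Lhx1 they were Mxd3, Shisa8, Clspn, C530008M17Rik and Lingo1 (r from 0.967 to 0.979). Mxd3 encodes a MAX-binding repressor present in dividing cells and Clspn the replication checkpoint protein claspin. Clspn averaged 0.441 ± 0.147 CPM on CD and 2.17 ± 0.796 on HF+SD at 6 weeks. For Lhx1os they were Ephb2, Myct1, Hexa, Kdr and BC028528 (r from 0.986 to 0.988), of which Kdr encodes a VEGF receptor of endothelium. Kdr averaged 78.8 ± 14.6 CPM on CD and 298 ± 27.1 on HF+SD at 6 weeks.

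For Foxf1 the closest genes were Col9a3, Tbx2, Podxl, Cit and Nos3 (r from 0.932 to 0.942). Podxl encodes podocalyxin and Nos3 the nitric oxide synthase of endothelium. Nos3 averaged 7.40 ± 1.54 CPM on CD and 17.8 ± 2.13 on HF+SD at 6 weeks. For Foxf2 they were Dab2, Pemt, Gm14221, Srgn and Slc22a19 (r from 0.976 to 0.984), of which Dab2 encodes an endocytic adaptor and Srgn the proteoglycan serglycin. Dab2 averaged 33.7 ± 2.41 CPM on CD and 79.7 ± 3.28 on HF+SD at 6 weeks. When the mean of each diet group was subtracted as well, so that only the spread among mice of a group counted, 0 of the 5 genes stayed on the list for Lhx1, Lhx1os and Foxf2 and 1, Tbx2, for Foxf1. With ranks in place of values the shared genes were 1, 1, 2 and 1 for Lhx1, Lhx1os, Foxf1 and Foxf2.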

How the data were processed

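RNA-seq of 16 mouse thyroids (4 per diet and time point) was analysed from the raw counts per gene deposited by the authors. Their second table, a normalized signal that the authors made by dividing each library's counts by 1 size factor, served 1 alternative. The submitters' processing notes name Trim Galore 0.6.7, STAR, the mm39 build, DESeq2 1.36.0 and R 4.1.0. The counting tool, its annotation and its strand setting are not named there (not given in the sources used here). Of 21640 genes, 20841 had a symbol. Counts were fitted in R 4.3.3 with edgeR 4.0.16 (TMM factors, filterByExpr by group, quasi-likelihood test), separately for each time point, with Benjamini-Hochberg adjustment over all genes tested, and time points were compared in 1 joint fit. A gene was called when its adjusted p was below 0.05 and its log2 fold change lay outside -1 to 1. CPM used TMM-scaled totals, and correlations a prior count of 2. P-values measure the spread between 4 mice per group. DESeq2 1.42.0 and limma 3.58.1 (pseudocount 1) served as alternatives. The fits were tested on simulated counts.

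The 4 genes and the 14 lists (6 of pathways, 8 of markers, 174 of 202 entries in the table) were chosen with earlier results of these data known. Named genes were the 4 genes, up to 3 called in each direction per pathway list and time point by smallest adjusted p, the best expressed forkhead and Hedgehog genes, called genes among the 5 neighbours on each side, and the 5 most similar genes. A gene that the rule names is not reported here. Other neighbours, Tg, Gli1, Ptch1 and the marker genes at 0 were named after their values were seen. Promoter windows came from RefSeq, with 3 of the 4 genes matched, and distances and exon lengths from GENCODE M21, both on GRCm38.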

Additional observations from a re-analysis of the deposited data

Results flagged for a closer look

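In the 3-week CD group, 2 values stood apart from the other 3 mice by Dixon's test for 4 samples, both in the mouse M55. Lhx1 was at 0.0257 CPM there, which is 1 count, while the other 3 mice had 0. Fendrr was at 2.29 CPM, the highest of that group and below every HF+SD mouse of the same week. With the other 3 mice at 0, any count would have been flagged, so the flag says nothing particular about M55. The test was run on 52 sets of 4 values, and chance alone flags about 1 in 20 of them. Of 26 other named genes, 0 had a diet effect that differed between the time points at an adjusted p under 0.05 in the joint edgeR fit.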

How the results depend on the processing

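The direction of Lhx1, Lhx1os, Foxf1 and Foxf2 was the same in each alternative at both time points. Apart from the fits that left out a single mouse, values that moved by more than the spread between mice were 4.20 for Foxf2 at 6 weeks with libraries scaled to thyrocyte markers, 8.82 for Lhx1 at 6 weeks without M45 and M48, 8.18 for Lhx1 and 5.62 for Lhx1os at 3 weeks with a muscle score as covariate, and 5.79 and 4.37 for the same genes at 3 weeks with limma. The 8.82 rests on CD libraries with 0 and 1 Lhx1 counts, so its size has almost no upper limit. Leaving out each mouse in turn gave 6-week ranges of 5.63 to 6.91 for Lhx1, 6.48 to 7.53 for Lhx1os, 1.25 to 1.88 for Foxf1 and 4.49 to 5.00 for Foxf2. At 3 weeks they were 7.15 to 9.08, 4.58 to 5.84, 0.84 to 1.4 and 1.55 to 1.93. The 9.08 came from leaving out M55, after which no CD library held an Lhx1 count, so it depends on the prior count. With 3 counts per library as the floor, Lhx1 was then at least 21.9-fold higher on HF+SD. The 6 pathway lists together gave 16 calls at 6 weeks, between 11 (without M18) and 23 (without M22), and 8 at 3 weeks, between 4 (without M96 or M31; 5 without M19y) and 10 (without M54). At 3 weeks they gave 5 calls with thyrocyte scaling and 5 with the muscle covariate. The cause of these changes was not tested. Thyrocyte scaling moved the all-gene median by -0.53 (6 weeks) and -0.07 (3 weeks) on the log2 scale. No paired analysis was possible because the groups share no replicate numbers.

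Counts of 0 to 9 in the CD libraries limit the size of the Lhx1 and Lhx1os differences, and 4 mice per group limit all calls.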
